A study of Mus musculus with 95 samples.

Results

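The mitochondrially encoded genes are the genes carried by the circular mitochondrial chromosome (M) itself. They were taken as all rows of the count table whose symbol starts with mt-, which gave 37 genes of 55401 rows: 13 protein-coding genes, 2 ribosomal RNA (rRNA) genes and 22 transfer RNA (tRNA) genes. They were followed through 95 bulk RNA-seq libraries of mice of the inbred strain C57BL/6J. TLS mice, labelled Stim, had spent 3 months in a torpor-like state and were 205 days old. Control mice, labelled Con, were also 205 days old and were collected after the same 3 months. Time-0 mice, labelled T0, were collected at the start and were 83 days younger. Each group gave libraries of 4 tissues (cortex, kidney, liver and WAT, white adipose tissue) from 8 animals, 4 F and 4 M, except that the WAT control group holds 7 libraries. By their labels the same animals gave all 4 tissues, but T0_4 and T0_5 carry opposite letters for sex in kidney and in the other tissues, and the letters fitted sex-linked genes in every library, so the kidney labels of these 2 may be exchanged. The sources used here do not say how the torpor-like state was brought about, and the labels name no genotype beyond the strain. The table holds raw counts per gene. Levels below are in CPM, counts scaled to the library total. Ranges and medians of single members by group, and correlations between members, also use TMM factors within a tissue. Class sums, levels per kilobase, mean tRNA levels, nuclear copies and their correlations, marker sums and Rn7sk carry no TMM factor.

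The mitochondrial chromosome is transcribed from both strands into long precursor RNAs. Enzymes cut the tRNAs out of the precursors, and most of the mRNAs and both rRNAs lie between tRNAs and are freed by those cuts. Most mitochondrial mRNAs, and the rRNAs to a smaller degree, carry short poly(A) tails, whereas mature tRNAs do not. The proteins are subunits of the respiratory chain and of ATP synthase, which also need many subunits encoded in the nucleus. The rRNAs form the core of the mitochondrial ribosome. Copies of mitochondrial DNA have also been inserted into nuclear chromosomes in the course of evolution.

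Those nuclear copies bear on the counts of several members. An insertion annotated on the minus strand of chromosome 1 at chr1:24611535-24616197 (GRCm38) runs through the same genes as the mitochondrial stretch from the end of mt-Co1 into mt-Nd4. Its annotated pseudogenes were Gm29216, Gm28661, Gm10925, Gm28437, Gm28438, Gm10222 and Gm28439. Of all windows of 50 bases, all of mt-Co2, 99.5% of mt-Atp6, 99.9% of mt-Co3, 98% of mt-Nd3 and 98.8% of mt-Nd4l had an exact match in another annotated transcript. The share was 62.2% for mt-Nd4 and 51.1% for mt-Co1. It was 8.2% for mt-Nd2, 7.6% for mt-Nd5 and 1.0% for mt-Rnr2, and 0 for mt-Nd1, mt-Nd6, mt-Cytb, mt-Rnr1 and all 22 tRNA genes. No window of mt-Atp8 matched either, but the matching part of the insertion beyond its overlap with mt-Atp6 is not an annotated transcript and was not searched. The first 5 genes are called the copied genes below.

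The extent of the likeness can be read from the sequences, from the GENCODE vM21 transcripts, 5′ to 3′. The first bases of mt-Nd3 (chrM:9459-9519, plus strand) and of Gm28438 (chr1:24613059-24613119, minus strand) are shown because 1 substitution, T3C counted from the first base of mt-Nd3, is the only difference in their alignment; the capital marks it.
mt-Nd3: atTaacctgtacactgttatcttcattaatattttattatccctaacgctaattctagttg
Gm28438: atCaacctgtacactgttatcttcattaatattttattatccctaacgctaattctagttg
The first 90 bases of mt-Co2 (chrM:7013-7102, plus strand) are shown with an exact copy, Gm28661 (chr1:24615476-24615565, minus strand), and a diverged one, Gm13341 (chr2:22587873-22587962, minus strand). Capitals mark the substitutions C25T and G57A of Gm13341, counted from the first base of mt-Co2.
mt-Co2: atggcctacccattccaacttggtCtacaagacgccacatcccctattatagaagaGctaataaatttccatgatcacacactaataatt
Gm28661: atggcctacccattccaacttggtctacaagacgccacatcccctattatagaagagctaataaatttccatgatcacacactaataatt
Gm13341: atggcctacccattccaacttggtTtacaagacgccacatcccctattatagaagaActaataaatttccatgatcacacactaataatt
Gm28661 matched mt-Co2 over 681 of 684 bases with no mismatch. A read from such a stretch cannot be placed by its sequence, and the sources used here do not say how such reads were counted.

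Members also overlap each other on the chromosome. mt-Atp8 and mt-Atp6, both subunits of ATP synthase, share 43 bases in different reading frames (chrM:7927-7969, plus strand), shown because they make the counts of this pair uncertain.
mt-Atp8 and mt-Atp6 overlap: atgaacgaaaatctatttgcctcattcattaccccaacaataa
mt-Nd4l and mt-Nd4 share 7 bases on the same strand. mt-Nd5 and mt-Nd6, on opposite strands, share 14, and without a stated strand setting their reads there cannot be told apart. The other overlaps, such as mt-Nd1 with mt-Ti and mt-Nd2 with mt-Tw, were of 1 to 3 bases.

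Library totals ranged from 4031533 to 29269511 counts. The 5 marker genes of each labelled tissue were detected in every group of it, with summed medians of 4263 to 4647 CPM in cortex (neurons), 9829 to 12272 CPM in kidney, 63909 to 88279 CPM in liver and 23704 to 25974 CPM in WAT (white fat), and 0 libraries disagreed with the labelled letter for sex. The members were read off fits over all genes tested in a tissue. 22 of the 37 passed the filter on low counts in every tissue: all 13 protein-coding genes, both rRNA genes and 7 tRNA genes. The 15 tRNA genes that did not pass held 1244 counts in all 95 libraries together, against 52628 for the 7 that did. mt-Tk had 0 counts, mt-Tf 1 and mt-Te, the highest of the 15, 269. In 4 kidney and 2 WAT libraries the rRNA genes stood apart from the other libraries of the tissue, and the rRNA values there are given with and without them. In bulk tissue, fewer cells of a type and less RNA per cell cannot be told apart.

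The 13 protein-coding genes together held a few percent of all counts in every tissue and group. In cortex the median was 3.36% of counts in TLS, 3.36% in control and 2.85% in time-0 libraries. In kidney it was 4.13% in TLS, 5.12% in control and 4.29% in time-0 libraries. In WAT it was 4.16% in TLS, 3.32% in control and 3.09% in time-0 libraries. The ranges of the groups overlapped in all 3 of these tissues. Liver spread most, with 0.719 to 9.62% in TLS (median 3.12%), 0.953 to 7.48% in control (median 2.41%) and 2.64 to 7.42% in time-0 libraries (median 4.18%). The 3 highest liver values were those of TLS animals DDF3, B4B9 and E46E, at 9.62%, 9.61% and 8.89%, while TLS animal A5DA had the lowest of all.

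The median share of the 2 rRNA genes was 0.897% in TLS, 0.872% in control and 0.643% in time-0 cortex. It was 0.839% in TLS, 0.977% in control and 0.437% in time-0 kidney. Liver medians were 0.826% in TLS, 1.42% in control and 0.907% in time-0 libraries, and WAT medians were 0.252% in TLS, 0.204% in control and 0.130% in time-0 libraries. Set against the protein-coding genes, liver had 22.4 rRNA counts per 100 protein-coding counts in TLS, 41.2 in control and 19.5 in time-0 libraries (medians). WAT had the fewest, with 6.40 in TLS, 6.12 in control and 4.11 in time-0 libraries. The 22 tRNA genes summed to medians of 5.88 to 62.2 CPM over the 12 groups, lowest in time-0 WAT and highest in time-0 liver.

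**Figure D1:**
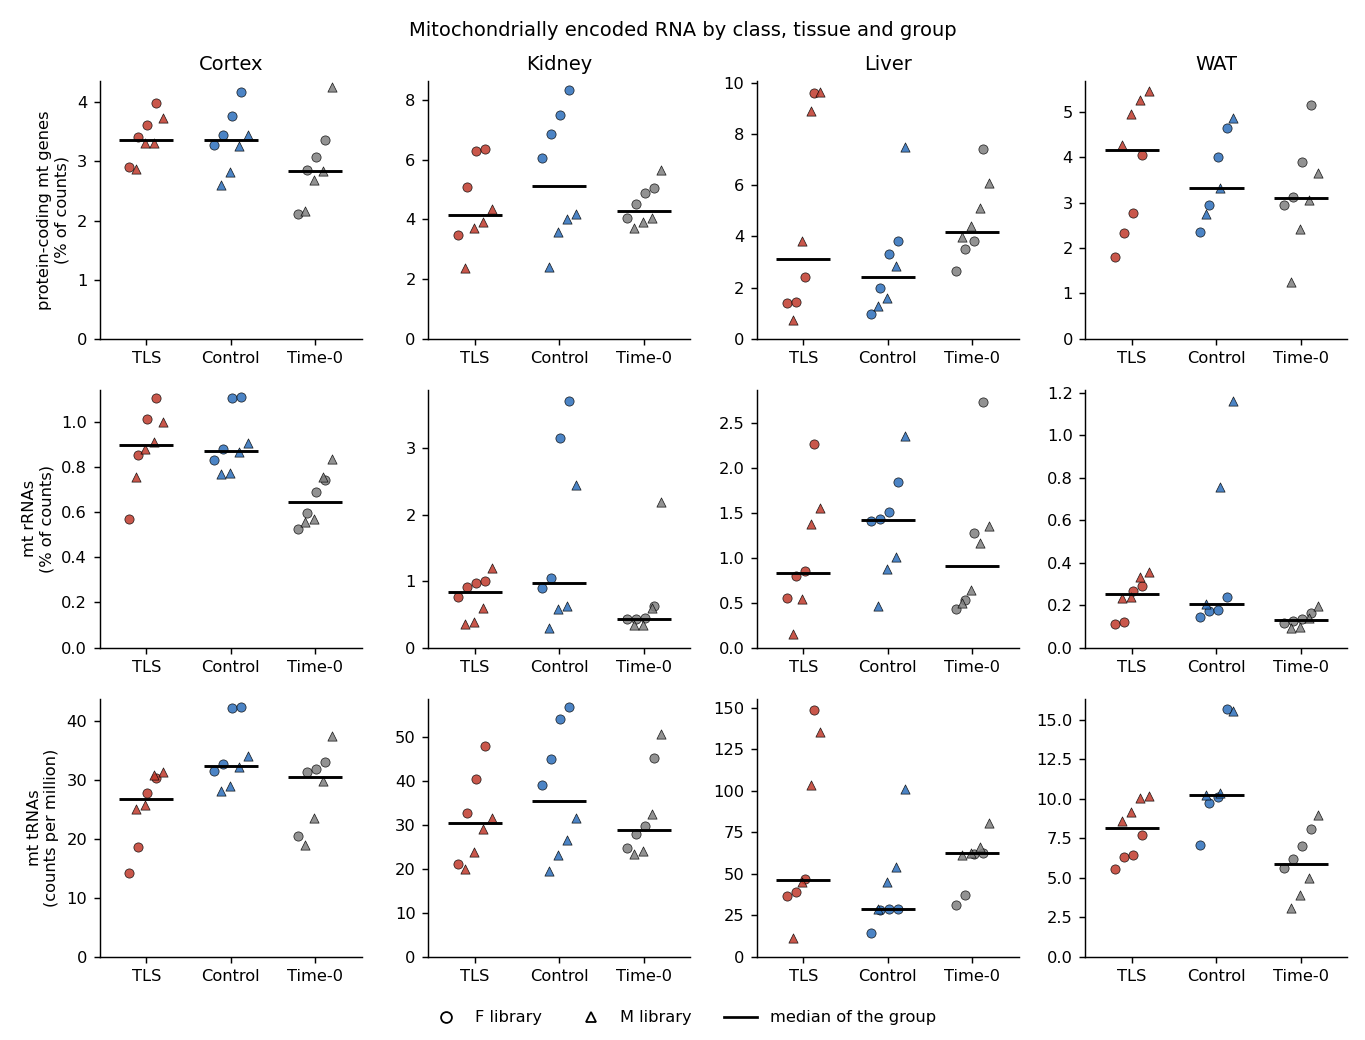
Summed level of each class of mitochondrially encoded genes by tissue and group, as percent of all counts for the protein-coding and rRNA genes and as CPM for the tRNA genes. Each point is 1 library and each bar a group median; liver protein-coding shares run from 0.719 to 9.62% in TLS mice, and single kidney and WAT libraries stand far above the others of their group for rRNA.

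Levels of single genes were compared per kilobase of transcript, over all libraries of a tissue. mt-Co1 (chrM:5328-6872), the core subunit of complex IV (cytochrome c oxidase), had a median of 8085 CPM per kb in cortex, 7343 in WAT, 7806 in kidney and 7686 in liver. It made up 38.4% of the protein-coding counts of the members in cortex, 34.8% in WAT, 29.8% in kidney and 32.8% in liver (medians). mt-Cytb (chrM:14145-15288), the mitochondrially encoded subunit of complex III, was second to mt-Co1 in cortex, liver and WAT, at 5378, 6574 and 6709 CPM per kb. In kidney it was above mt-Co1, at 9906 CPM per kb. mt-Nd1 (chrM:2751-3707), a subunit of complex I that lies at the junction of its membrane and peripheral arms, came next after these in all 4 tissues, from 4218 CPM per kb in WAT to 7352 CPM per kb in kidney.

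Of the other complex I subunits, mt-Nd2, mt-Nd4 and mt-Nd5, which form proton-pumping units of its membrane arm, had medians between 1144 CPM per kb (mt-Nd5 in liver) and 4238 CPM per kb (mt-Nd2 in kidney). mt-Nd6 (chrM:13552-14070), the protein-coding gene on the minus strand, lay far lower, at 66.2 CPM per kb in cortex, 124.2 in WAT, 157 in kidney and 177 in liver. The 5 copied genes lay lower still in most cases. mt-Nd3, mt-Co2, mt-Co3, mt-Atp6 and mt-Nd4l ranged from 5.24 to 46.9 CPM per kb in cortex, 6.20 to 45.3 in WAT, 3.42 to 64.9 in kidney and 2.67 to 32.8 in liver. The 4 plus-strand genes with at most 8.2% of windows copied (mt-Nd1, mt-Nd2, mt-Nd5 and mt-Cytb) ranged from 1144 to 9906 CPM per kb over the tissues. mt-Atp8 was at 3.34 CPM per kb in cortex, 7.75 in WAT, 5.11 in kidney and 4.25 in liver. The rRNA genes were at 3200 (mt-Rnr1) and 3325 (mt-Rnr2) CPM per kb in cortex, against 592 and 810 in WAT. Ribosomal RNAs and tRNAs reach a poly(A)-selected library only in part, so their level here is not their level in the cell.

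**Figure D2:**
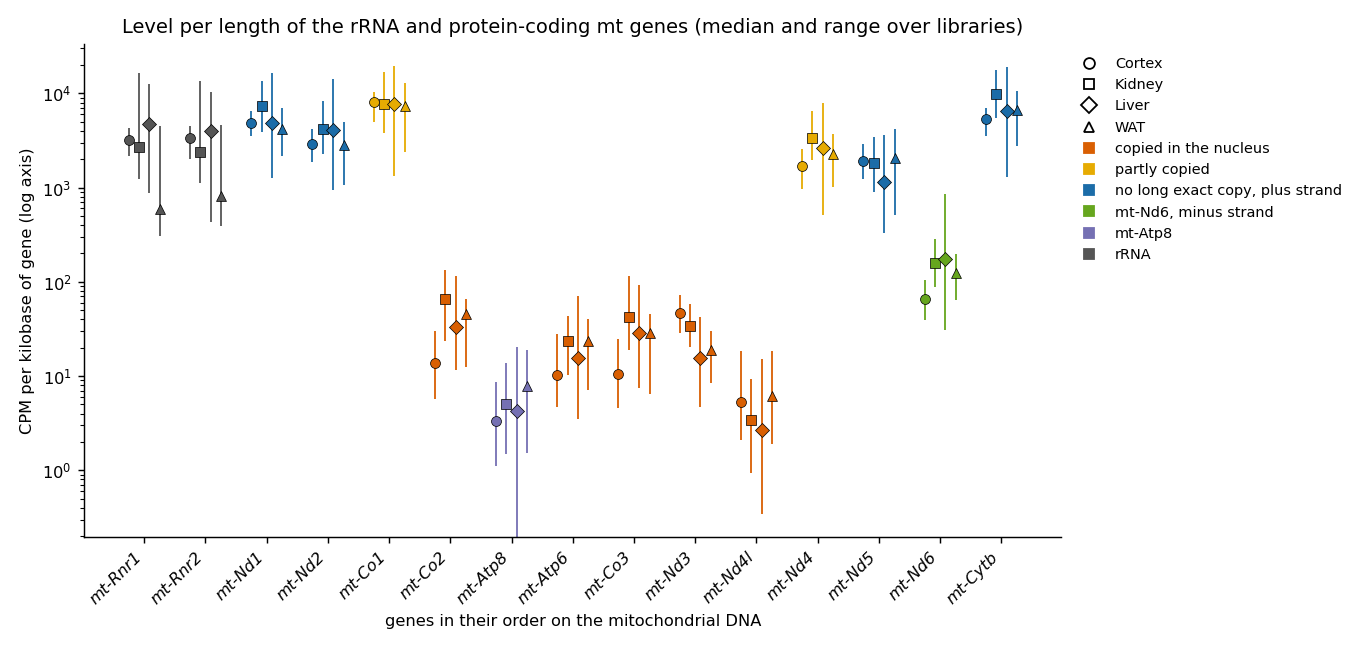
Median CPM per kilobase of each protein-coding and rRNA gene over all libraries of a tissue, on a log axis, with lines from the lowest to the highest library; colours separate genes by how much of their sequence is copied elsewhere. The copied genes and mt-Atp8 have medians of at most 64.9 CPM per kb, while mt-Co1, mt-Cytb and mt-Nd1 have medians of at least 4218; the line of mt-Atp8 in liver reaches 0 and leaves the axis.

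The members fell into sets that moved together from library to library. Correlations are of log2 CPM over the 24 libraries of a tissue (23 in WAT), across all groups, and are given as a description. Within a library all genes share the same depth and scaling. The 15 pairs among mt-Nd1, mt-Nd2, mt-Nd4, mt-Nd5, mt-Co1 and mt-Cytb had r of 0.842 to 0.953 in cortex, 0.888 to 0.986 in WAT, 0.837 to 0.979 in kidney and 0.907 to 0.991 in liver. mt-Rnr1 and mt-Rnr2 had r of 0.989 in cortex, 0.978 in WAT, 0.993 in kidney and 0.967 in liver with each other. Between these 6 protein-coding genes and the rRNAs the median r was 0.741 in cortex, 0.532 in WAT, 0.486 in kidney and 0.491 in liver.

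The copied genes had lower correlations with these 6 in cortex and kidney than in liver and WAT. The median r was 0.0212 in cortex and 0.189 in kidney, and 0.676 in liver and 0.625 in WAT. mt-Co2 had an r of 0.937 with its copy Gm28661 in cortex, 0.968 in WAT, 0.953 in kidney and 0.962 in liver. On the same scale without TMM factors its r with mt-Nd1 in cortex was 0.0618, against 0.0895 with them. mt-Atp6 with Gm10925 (0.943 to 0.977 over the tissues) and mt-Co3 with Gm28437 (0.932 to 0.962) were alike. Reads from exact copies cannot be told apart by sequence, so the counts of a gene and its copy are not separate observations. mt-Nd4l with Gm10222 had lower values, 0.520 in cortex, 0.837 in WAT, 0.724 in kidney and 0.798 in liver. mt-Nd3 with Gm28438 had -0.0119 in cortex and 0.619 to 0.727 in the other tissues, and in cortex it had 0.812 with mt-Rnr2. The median level of Gm28661 was 6.17 CPM in cortex, against 9.39 CPM for mt-Co2 itself.

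Members passed the test between TLS and control mice in cortex. 2 of the 22 tested members fell, and none rose, at an adjusted p below 0.05 (edgeR quasi-likelihood test, Benjamini-Hochberg over 16609 genes). Over all genes tested 5.41% passed in either direction, 2.99% higher and 2.42% lower, against 9.09% of the 22 members. 6 members had an unadjusted p below 0.05, and DESeq2 called 3. The median log2 fold change was -0.13 over the 22 members and 0.00219 over all genes.

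mt-Co2 (chrM:7013-7696), the subunit of complex IV that takes electrons from cytochrome c, fell. Its level was 3.93 to 9.63 CPM in TLS cortex (median 5.07) and 6.21 to 20.4 CPM in control cortex (median 11.3), with 6.34 to 19.6 CPM in time-0 cortex (median 11.7). The TLS and control ranges overlapped, but 0 of 8 TLS libraries exceeded the control median. The log2 fold change was -0.95 ± 0.27 (SE), with an edgeR adjusted p of 0.0400. The call was lost without any of 11 of the 16 single libraries (adjusted p up to 0.0905), namely TLS animals DDF3, B4B9, A5DA, E46E, B03E and 47BE and control animals A367, 9BA4, E329, 9916 and 5A66.

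mt-Tp, the tRNA for proline, was the other call. It is encoded on the minus strand at chrM:15356-15422, next to the control region, and its gene sequence is given here with the anticodon in capitals.
mt-Tp: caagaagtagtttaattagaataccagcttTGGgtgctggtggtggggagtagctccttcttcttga
It had 1.11 to 2.96 CPM in TLS cortex (median 1.61), against 1.94 to 4.57 CPM in control cortex (median 2.44) and 0.818 to 2.11 CPM in time-0 cortex (median 1.46). The TLS and control ranges overlapped, and 1 of 8 TLS libraries exceeded the control median. The log2 fold change was -0.73 ± 0.22 (edgeR adjusted p 0.0471). Leaving out any of 13 of the 16 libraries ended this call (adjusted p up to 0.0966): TLS animals B51B, DDF3, B4B9, B23B, E46E and B03E and control animals 983B, A367, 9BA4, D215, E329, 9916 and 5A66.

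Other copied genes had negative values short of the threshold. mt-Atp6 (chrM:7927-8607), the proton channel subunit of ATP synthase, had 3.15 to 6.94 CPM in TLS cortex (median 4.78) and 5.93 to 14.2 CPM in control cortex (median 7.31), a log2 fold change of -0.90 ± 0.28 with an adjusted p of 0.0591. mt-Co3 (chrM:8607-9390), a core subunit of complex IV, had 3.59 to 8.30 CPM in TLS cortex (median 5.19) and 5.34 to 14.6 CPM in control cortex (median 9.29), at -0.82 ± 0.29 with an adjusted p of 0.0999. For mt-Atp6, as for mt-Co3, no TLS library exceeded the control median. mt-Nd4l (chrM:9877-10173), a small subunit of the membrane arm of complex I, had -0.57 ± 0.28 (adjusted p 0.228). mt-Nd3, which is also copied, was at 12.9 to 26.2 CPM in TLS cortex (median 16.8) and 14.4 to 23.9 CPM in control cortex (median 18.5), a log2 fold change of -0.06 ± 0.13.

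The abundant genes lay close together in the same cortex libraries. mt-Co1 had 11481 to 15610 CPM in TLS cortex (median 13528) and 10129 to 15915 CPM in control cortex (median 12811), at a log2 fold change of 0.09 ± 0.12. mt-Cytb had medians of 6490 CPM in TLS and 6180 CPM in control cortex, and mt-Nd1 of 4909 CPM in TLS and 4728 CPM in control cortex. The log2 fold changes of mt-Cytb, mt-Nd1, mt-Nd2, mt-Nd4, mt-Nd5 and mt-Nd6 lay between -0.13 and 0.05, each with an SE of 0.10 to 0.17. mt-Rnr1 had -0.04 ± 0.12 and mt-Rnr2 -0.02 ± 0.13. mt-Atp8, at a median of 0.524 CPM in TLS and 0.691 CPM in control cortex, had -0.47 ± 0.33 (adjusted p 0.416).

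**Figure D3:**
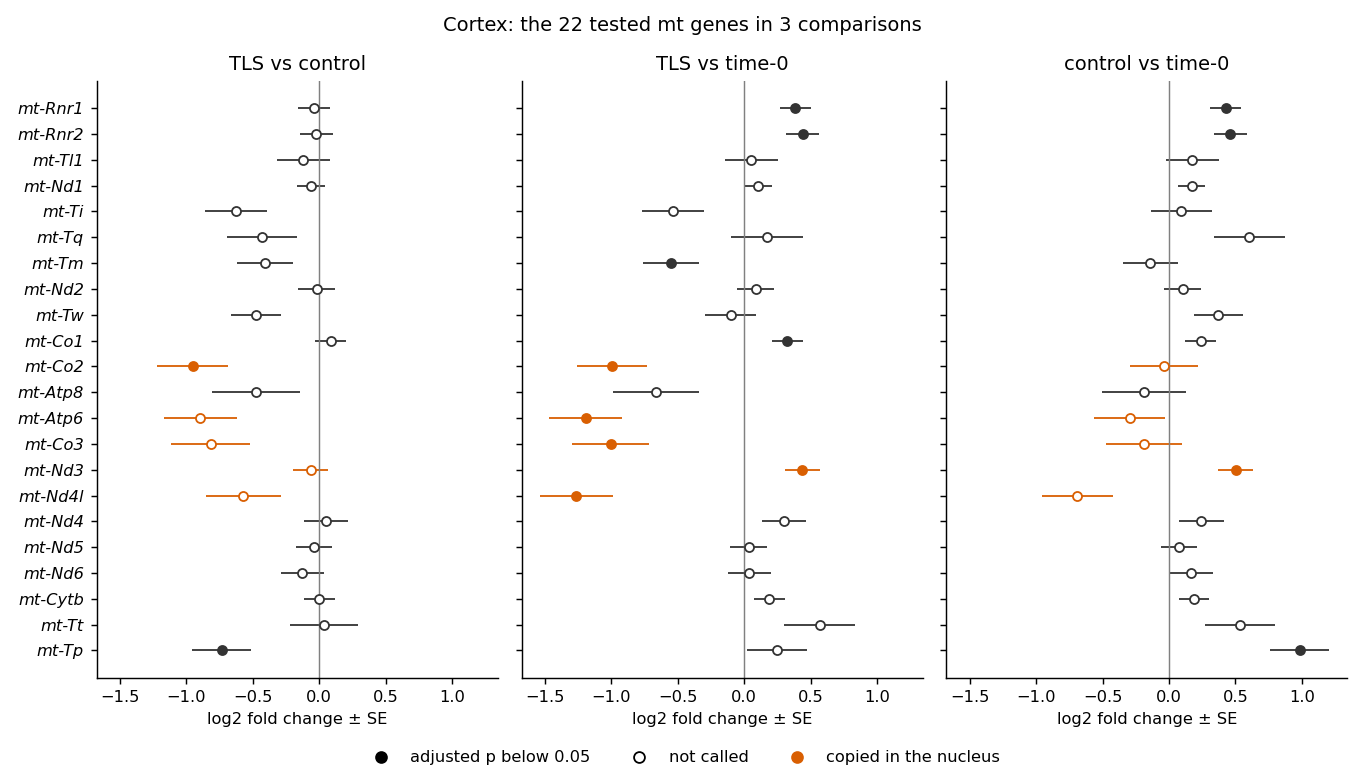
Log2 fold changes of the 22 tested members in cortex for TLS against control, control against time-0 and TLS against time-0, with bars of 1 SE; filled points passed an edgeR adjusted p of 0.05. mt-Co2 and mt-Tp pass below 0 for TLS against control, and 9 members pass for TLS against time-0.

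The nuclear copies of these genes had negative values for TLS against control cortex as well. Where gene and copy are identical in sequence, this is no separate observation. Gm28661 had 3.00 to 8.36 CPM in TLS cortex (median 4.69), against 4.80 to 12.5 CPM in control cortex (median 7.43) and 4.16 to 15.1 CPM in time-0 cortex (median 7.88). Its log2 fold change for TLS against control was -0.64 ± 0.25 (adjusted p 0.127). Gm10925 had -0.66 (adjusted p 0.0865) and Gm28437 -0.70 (adjusted p 0.152). Gm29216, the copy of the end of mt-Co1, fell by 0.75 on the log2 scale (adjusted p 0.0405), and Gm4076, a chromosome 13 copy of part of mt-Nd5, fell by 1.02 (adjusted p 0.0275), while mt-Co1 and mt-Nd5 themselves had 0.09 and -0.04.

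RNAs kept in the nucleus moved with these genes. Malat1, Neat1 and Meg3, long noncoding RNAs that stay mostly in the nucleus, together made up 0.209 to 0.318% of counts in TLS cortex and 0.452 to 0.603% in time-0 cortex. In control cortex they made up 0.214 to 0.417% in F and 0.577 to 0.681% in M libraries. Over the 24 cortex libraries, log2 CPM had an r with this share of 0.719 for mt-Co2, 0.645 for mt-Atp6, 0.656 for mt-Co3 and 0.694 for mt-Nd4l, and of -0.478 for mt-Nd3. Both values of a library rest on the same total, and the libraries span all groups, which differ in this share. With the share as a covariate, mt-Co2 had -0.43 (adjusted p 0.712), mt-Tp had -0.96 (adjusted p 0.233), and 0 of 22 members and 2 of all genes were called. The share itself differed between the groups, so this fit cannot tell its part from that of the treatment, and that part was not tested. Of the 3 RNAs Meg3 passed for TLS against control, at -0.75 ± 0.17 (adjusted p 0.0178). The 5 red blood cell markers summed to 33.1 to 151 CPM in TLS cortex (median 61.7), against 7.82 to 135.01 CPM in control cortex (median 22.9) and 26.9 to 76.97 CPM in time-0 cortex (median 39.9), none was at 0 throughout a group, and their part was not tested either.

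**Figure D4:**
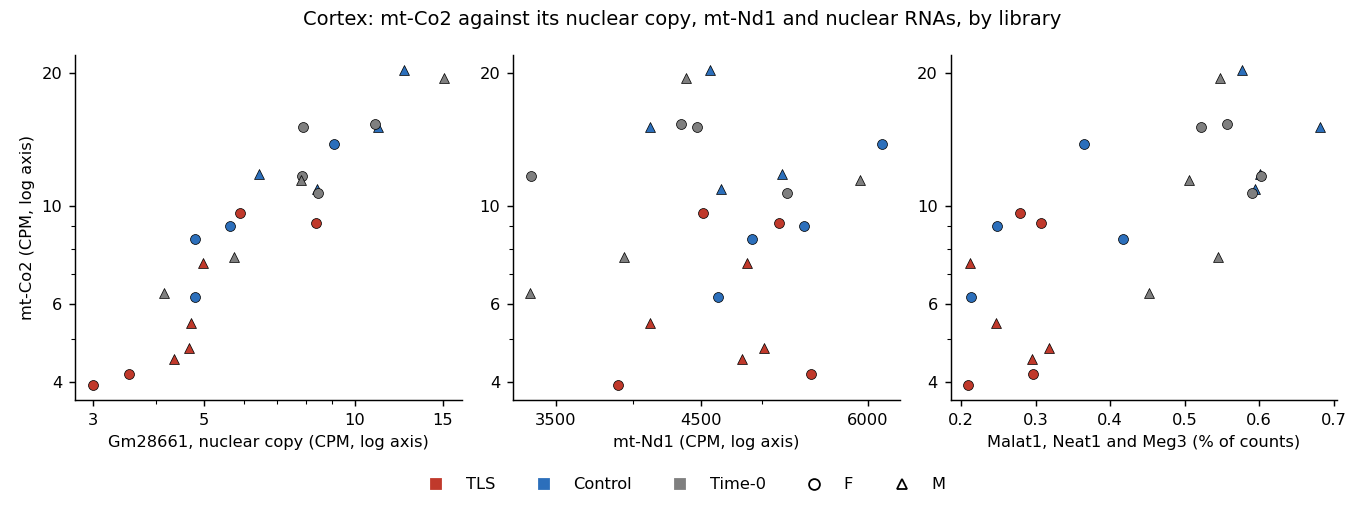
mt-Co2 in each cortex library, in CPM on a log axis, against its nuclear copy Gm28661 and mt-Nd1, both in CPM on log axes. The last panel shows it against the nuclear RNA share (Malat1, Neat1 and Meg3, percent of counts). Colours give the group and shapes the labelled letter for sex. mt-Co2 follows Gm28661 (r = 0.937) and the nuclear RNA share (r = 0.719) more closely than mt-Nd1 (r = 0.0618). Reads of mt-Co2 and Gm28661 cannot be told apart where their sequence is identical, so their counts are not separate observations.

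In cortex the TLS against control contrast was also made within each sex, in a fit over the libraries of both sexes. In M cortex, where 16.6% of all genes were called, 2 of 22 members (9.09%) fell, a share below that of all genes. mt-Co2 had 4.48 to 7.61 CPM in TLS M and 10.8 to 20.4 CPM in control M libraries, ranges that did not overlap, at a log2 fold change of -1.41 ± 0.36 (adjusted p 0.0115). mt-Co3 had 3.86 to 5.86 CPM in TLS M and 8.40 to 14.6 CPM in control M libraries, also without overlap, at -1.32 ± 0.40 (adjusted p 0.0320). How many of all genes had ranges without overlap was not counted. In F cortex, where 0.433% of all genes were called, edgeR called 0 members (5 at an unadjusted p below 0.05; DESeq2 was not run by sex). mt-Co2 had 3.93 to 9.63 CPM in TLS F and 6.21 to 13.9 CPM in control F libraries, which overlapped. The difference between the sexes was itself tested, and for mt-Co2 it was -0.95 ± 0.50 (M minus F, adjusted p 0.278).

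mt-Tt (chrM:15289-15355, plus strand), the tRNA for threonine, was the 1 member called for a sex difference of the TLS effect in cortex. That is 4.55% of the 22 members, near the 5.08% of all genes that passed this test. mt-Tt lies outside the naming rule for tRNAs and was chosen after its values were seen. It had 1.22 to 2.18 CPM in TLS M and 0.539 to 1.33 CPM in control M libraries, but 0.917 to 1.19 CPM in TLS F and 1.33 to 2.39 CPM in control F libraries. The ranges overlapped in M and did not overlap in F, which was not counted over all genes. The difference of the log2 fold changes, M minus F, was 1.55 ± 0.43 (edgeR adjusted p 0.0365), and it passed in 5 of 16 fits without a single library. In the contrast within each sex mt-Tt did not pass (edgeR adjusted p 0.0769 in M and 0.276 in F). For the same sex difference 0 members passed in kidney, liver and WAT, where edgeR called 0%, 0.00735% and 0% of all genes; 4, 2 and 2 members had an unadjusted p below 0.05, and no other tool was run.

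Against time-0 cortex, controls differed in 4 members, all higher: the 2 rRNAs, mt-Nd3 and mt-Tp. Over all genes 21.2% passed in this comparison and 10.8% were higher, so the share of members, 18.2%, is near the background. mt-Rnr1 (chrM:70-1024), the rRNA of the small mitochondrial ribosomal subunit, had 2790 to 4153 CPM in control cortex (median 3192) and 2046 to 3168 CPM in time-0 cortex (median 2353). mt-Rnr2 (chrM:1094-2675), that of the large subunit, had 4779 to 7041 CPM in control cortex (median 5519) and 3177 to 5366 CPM in time-0 cortex (median 4080). The ranges overlapped for both, and all 8 control libraries exceeded the time-0 median. The log2 fold changes were 0.43 ± 0.12 for mt-Rnr1 (adjusted p 0.0127) and 0.46 ± 0.13 for mt-Rnr2 (adjusted p 0.0119).

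mt-Nd3 had 14.4 to 23.9 CPM in control cortex (median 18.5) and 9.82 to 17.5 CPM in time-0 cortex (median 12.9), at 0.50 ± 0.13 (adjusted p 0.00813). mt-Tp rose most in controls, at 0.98 ± 0.22 (adjusted p 0.00268). These 4 calls held in all 20 alternatives tried, and the count was 8 without time-0 animal T0_5. Control and time-0 mice differ in age as well as in time under study, and the 2 cannot be told apart. Choroid plexus markers, which dissection can carry into cortex, summed to 17.9 to 84.3 CPM in control cortex (median 48.1) and 3.74 to 48.3 CPM in time-0 cortex (median 11.3), with none of the 5 markers at 0 throughout a group, and their part in the result was not tested.

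TLS cortex differed from time-0 cortex in 9 members, 4 higher and 5 lower, where 35.7% of all genes passed, 18.1% higher and 17.6% lower, so the members' 40.9% is near the background. The comparison shares its TLS libraries with the first contrast and its time-0 libraries with the second. Choroid plexus markers summed to 6.30 to 82.3 CPM in TLS cortex (median 43.3), against the time-0 median of 11.3 CPM, and their part was not tested. mt-Rnr1 (0.39 ± 0.12, adjusted p 0.0133), mt-Rnr2 (0.44 ± 0.13, adjusted p 0.00889) and mt-Nd3 (0.44 ± 0.13, adjusted p 0.0107) were higher, as was mt-Co1. mt-Co1 had 11481 to 15610 CPM in TLS cortex, against 7613 to 15792 CPM in time-0 cortex (median 10660), at 0.32 ± 0.12 (adjusted p 0.0314), with overlapping ranges and all 8 TLS libraries above the time-0 median. Its call was lost without any of TLS animals B03E and 47BE or time-0 animals T0_2, T0_3, T0_6 and T0_8, and without the low-count filter (adjusted p 0.0827).

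The lower members were mostly the copied genes. mt-Nd4l had 0.621 to 1.57 CPM in TLS cortex (median 0.983) and 0.971 to 5.45 CPM in time-0 cortex (median 2.53), at -1.26 ± 0.28 (adjusted p 0.0008). mt-Atp6 had -1.19 ± 0.28 (adjusted p 0.00188), mt-Co3 -1.01 ± 0.29 (adjusted p 0.00997) and mt-Co2 -0.99 ± 0.26 (adjusted p 0.00559). For each of these 4 genes the ranges overlapped and 0 of 8 TLS libraries exceeded the time-0 median. Some copies of the same stretch fell too, Gm28661 by 0.77, Gm10925 by 0.92 and Gm28439, the copy of part of mt-Nd4, by 1.48 (adjusted p 0.0184, 0.00293 and 0.000397). Here too, identical copies are no separate observation. Gm28437, the copy of mt-Co3, had -0.71 (adjusted p 0.0591) and Gm28438 had -1.01 (adjusted p 0.103), while mt-Nd4 itself had 0.30 ± 0.17 (adjusted p 0.168). mt-Tm, the tRNA for methionine, had 2.60 to 5.92 CPM in TLS cortex (median 4.85) and 3.11 to 11.5 CPM in time-0 cortex (median 6.35), at -0.55 ± 0.21 (adjusted p 0.0413). Its call was lost without any of TLS animals B51B, B4B9, A5DA, B23B and B03E or time-0 animals T0_1, T0_2, T0_5 and T0_7, and without the low-count filter (adjusted p 0.105).

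In kidney no member passed in any contrast. For TLS against control edgeR called 0 of 22 members and 0.231% of all genes; 5 members had an unadjusted p below 0.05 and DESeq2 called 0. All 13 protein-coding genes had negative log2 fold changes, from -0.12 for mt-Nd6 to -0.87 for mt-Nd4l, with a median of -0.34 against 0.0147 over all genes. mt-Cytb had 5923 to 13240 CPM in TLS kidney (median 10391) and 8265 to 16969 CPM in control kidney (median 13484), at -0.38 ± 0.18 (adjusted p 0.562). The summed protein-coding share was 3.46 to 6.38% in TLS F and 6.06 to 8.34% in control F kidney, against 2.36 to 4.36% in TLS M and 2.39 to 4.18% in control M kidney. In the F kidney contrast, from a fit over both sexes, all 13 protein-coding values were negative (median -0.58). There 13 of the 22 members had an unadjusted p below 0.05, but edgeR called 0 members and 0.15% of all genes. In M kidney 0 members had an unadjusted p below 0.05 and edgeR called 0.0312% of all genes. DESeq2 was not run by sex. The members vary together, so their signs are not separate observations.

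The kidney rRNAs turned on single libraries. mt-Rnr2 had 1943 to 9162 CPM in TLS kidney (median 4634), 1911 to 21033 CPM in control kidney (median 5069) and 2086 to 19822 CPM in time-0 kidney (median 2305). Control animals 9916, D215 and E329 and time-0 animal T0_8 had 3.71%, 3.16%, 2.46% and 2.20% of counts in the 2 rRNA genes, and the next library had 1.20%. The TLS against control log2 fold change was -1.14 ± 0.54 for mt-Rnr2 (adjusted p 0.583) and -1.19 ± 0.54 for mt-Rnr1 (adjusted p 0.559). Without those 4 libraries it was 0.19 and 0.09. They were picked by the rRNA share itself and include no TLS library, so a rise of this difference was built in. Rn7sk, a nuclear RNA made without a poly(A) tail by RNA polymerase III and chosen after its values were seen, was at 165 to 294 CPM in the same 4 libraries and at most 79.2 CPM in the other 20. Its part in the rRNA values was not tested.

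For control against time-0 kidney edgeR called 0 members and 0.312% of all genes, with 0 members at an unadjusted p below 0.05 and 0 by DESeq2. mt-Rnr1 had 1.05 ± 0.56 and mt-Rnr2 1.14 ± 0.57, against 0.59 and 0.61 without the 4 libraries. For TLS against time-0 it called 0 members and 0.681% of all genes, with 2 members at an unadjusted p below 0.05 and 0 by DESeq2. mt-Nd4l had the lowest protein-coding value there, -0.84 ± 0.33 (adjusted p 0.222). Without the 4 libraries mt-Rnr1 had 0.68 (adjusted p 0.240) and mt-Rnr2 0.80 (adjusted p 0.188), where the fit with them gave -0.14 for mt-Rnr1.

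**Figure D5:**
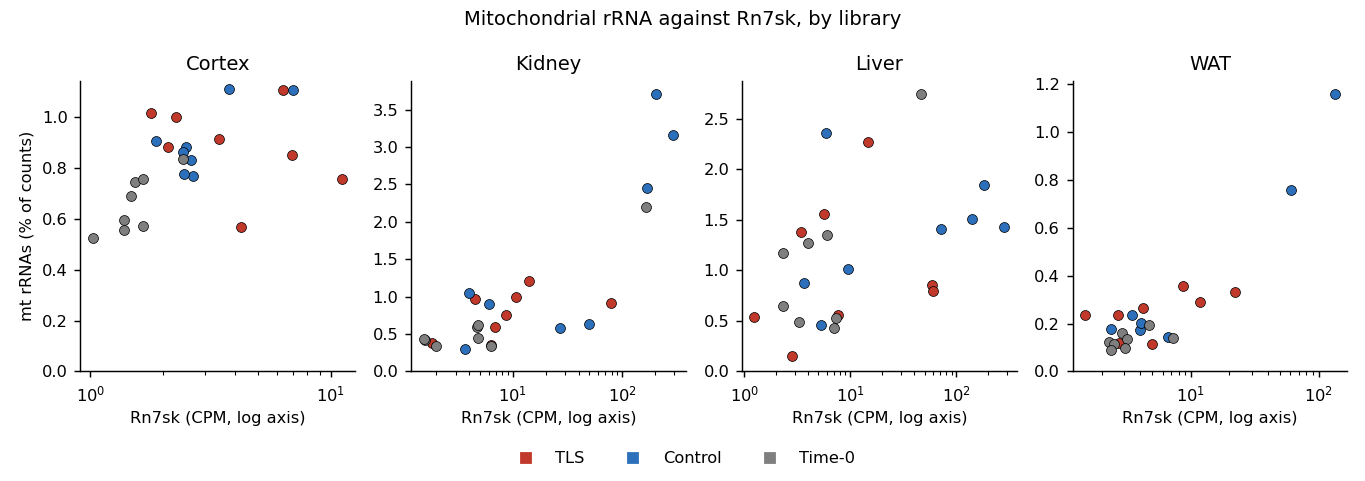
Share of counts in the 2 mitochondrial rRNA genes against Rn7sk, with Rn7sk on a log axis, 1 point per library in each tissue, coloured by group. In kidney 4 libraries with 2.20 to 3.71% rRNA have 165 to 294 CPM of Rn7sk, and in WAT control animals E329 and 5A66 stand apart in both.

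In liver no member passed in any contrast. For TLS against control edgeR called 0 members and 1.95% of all genes, with 3 members at an unadjusted p below 0.05 and 0 by DESeq2. All 13 protein-coding genes had positive log2 fold changes, from 0.02 for mt-Co3 to 1.5 ± 0.61 for mt-Atp8 (adjusted p 0.194), with a median of 0.49 against 0.0772 over all genes. mt-Cytb had 2173 to 18705 CPM in TLS liver (median 5936), 2900 to 14854 CPM in control liver (median 5847) and 5731 to 19630 CPM in time-0 liver (median 8304). mt-Nd2 had 1422 to 14282 CPM in TLS liver (median 4002) and 1783 to 8970 CPM in control liver (median 3144), at 0.70 ± 0.44 (adjusted p 0.412). The ranges overlapped widely for both. mt-Nd6 reached 426 CPM in a single TLS library, against a highest value of 136.2 CPM in control liver.

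For TLS against control liver the rRNAs had negative values. mt-Rnr2 had 985 to 8379 CPM in TLS liver (median 4901) and 2772 to 16348 CPM in control liver (median 8946), at -0.92 ± 0.43 (adjusted p 0.260), and mt-Rnr1 had -0.42 ± 0.40 (adjusted p 0.611). Per 100 protein-coding counts, TLS liver had 14.1 to 59.9 rRNA counts and control liver 30.5 to 150, which overlapped. Rn7sk in liver was highest in control F libraries, at 71.2 to 281.5 CPM. It had 7.58 to 60.3 CPM in TLS F and 4.01 to 46.6 CPM in time-0 F libraries. In M libraries it had at most 9.50 CPM, a level within the TLS F and time-0 F ranges. Its part in the liver rRNA values was not tested. For control against time-0 liver edgeR called 0 members and 0.529% of all genes, and for TLS against time-0 it called 0 members and 1.34% of all genes. In both, 0 members had an unadjusted p below 0.05 and DESeq2 called 0. For control against time-0 mt-Rnr1 had 0.47 ± 0.40 and mt-Rnr2 0.67 ± 0.42, and for TLS against time-0 mt-Rnr1 had 0.05 ± 0.40 and mt-Rnr2 -0.25 ± 0.42. 11 of 13 protein-coding genes had negative values for control against time-0, down to -1.15 ± 0.61 for mt-Atp8.

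In WAT no member passed by edgeR in any contrast. For TLS against control edgeR called 0 members and 0.00596% of all genes, with 3 members at an unadjusted p below 0.05; DESeq2 called 1 member. mt-Tp had 0.0970 to 0.691 CPM in TLS WAT (median 0.328) and 0.498 to 2.02 CPM in control WAT (median 1.00), at -1.64 ± 0.37 (adjusted p 0.165), with overlapping ranges. mt-Tw, the tRNA for tryptophan, had 0.839 to 2.62 CPM in TLS WAT (median 1.36) and 1.38 to 5.70 CPM in control WAT (median 2.95), at -0.97 ± 0.38 (adjusted p 0.342). The 13 protein-coding genes had log2 fold changes between -0.41 (mt-Nd6) and 0.13, with a median of -0.05. mt-Co1 had 6007 to 19409 CPM in TLS WAT (median 16116) and 6928 to 21067 CPM in control WAT (median 12154), at 0.10 ± 0.31.

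For control against time-0 WAT edgeR called 0 members and 0.155% of all genes, with 8 members at an unadjusted p below 0.05, and DESeq2 called 3. mt-Rnr2 had 929 to 9044 CPM in control WAT (median 1444) and 619 to 1410 CPM in time-0 WAT (median 890), at 1.48 ± 0.38 (adjusted p 0.125). mt-Rnr1 had 1.58 ± 0.47 (adjusted p 0.187) and mt-Nd6 0.73 ± 0.23 (adjusted p 0.211). Control animals E329 and 5A66 had 0.756% and 1.16% of counts in the rRNA genes, against at most 0.357% in the other WAT libraries, with at least 60.4 CPM of Rn7sk, against at most 22.2 CPM. Without them mt-Rnr2 had 0.58 and mt-Rnr1 0.36 for control against time-0. For TLS against control the values were 0.22 and 0.57, where the fit with both libraries gave -0.72 and -0.68. Both libraries were picked by the rRNA share itself and are controls, so these shifts were built in. For TLS against time-0 WAT edgeR called 0 members and 0.226% of all genes, with 3 members at an unadjusted p below 0.05 and 0 by DESeq2. Among WAT libraries, 5 skeletal muscle markers summed to 11.6 to 4443 CPM in TLS, 29.4 to 231 CPM in control and 42.9 to 82.4 CPM in time-0 WAT, highest in TLS animal B51B. 5 brown fat markers summed to 13.03 to 235 CPM in TLS (highest in B51B), 11.7 to 27.2 CPM in control and 11.0 to 59.3 CPM in time-0 WAT. 5 liver markers summed to 2465 to 10770 CPM in TLS, 841 to 3064 CPM in control and 760 to 4569 CPM in time-0 WAT. No marker of these lists was at 0 throughout a group, and their part in the WAT values was not tested.

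The tRNAs were rare in these libraries and differed by tissue. mt-Ti, the tRNA for isoleucine, which overlaps the end of mt-Nd1 by 2 bases, averaged 3.35 CPM in cortex, 1.52 in WAT, 20.1 in kidney and 35.5 in liver. mt-Tw averaged 9.46 CPM in cortex, 1.93 in WAT, 4.54 in kidney and 5.78 in liver. mt-Tm and mt-Tl1, a tRNA for leucine, were also highest in cortex, at 5.97 and 5.07 CPM. In TLS cortex mt-Ti had 0.774 to 3.76 CPM (median 2.57), against 1.95 to 5.51 CPM in control cortex (median 3.84), at -0.63 ± 0.23 (adjusted p 0.103). mt-Tw had 3.43 to 10.7 CPM in TLS cortex (median 8.85) and 9.54 to 13.5 CPM in control cortex (median 11.3), at -0.47 ± 0.19 (adjusted p 0.129). mt-Tl1 in kidney had 0.0907 to 1.29 CPM in TLS (median 0.752) and 0.364 to 4.18 CPM in control libraries (median 1.65), at -1.27 ± 0.39 (adjusted p 0.256).

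mt-Tp was also the 1 member called for a TLS against control difference that varied between tissues. A joint edgeR fit asked whether the 4 differences were equal, and mt-Tp passed at an adjusted p of 0.0439. In that fit 4.42% of all genes passed, so 1 of 22 members is near the background. The log2 fold change of mt-Tp was -0.73 in cortex, -1.64 in WAT, -0.25 in kidney and 0.63 in liver. With the animal as a replicate block the adjusted p was 0.110 and 0 members passed. It also did not pass without any of animals DDF3, B4B9, E46E, 983B, A367, 9BA4, 9916 and 5A66, where it reached 0.174.

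Nuclear genes that serve the mitochondrial genome were set beside the members, as lists chosen with earlier results of these data known. For TLS against control cortex, 0 of 9 genes of mitochondrial transcription, 0 of 9 of mtDNA replication, 0 of 12 translation factors and 0 of 10 regulators of mitochondrial biogenesis passed. The share over all genes was 5.41%. Of 26 genes of mitochondrial RNA processing, modification and turnover, 2 were lower, where 2.42% of all genes were lower: Trmu, which modifies mitochondrial tRNAs, at -0.39 ± 0.11 (adjusted p 0.0443), and Tbrg4, a member of the FASTK family of mitochondrial RNA-binding proteins, at -0.23 ± 0.07 (adjusted p 0.0457). Tfb2m, a transcription factor of the mitochondrial genome, had 0.24 ± 0.08 (adjusted p 0.0788). Of 7 stress genes tested, where 2.99% of all genes were higher, Atf5, a transcription factor of the mitochondrial unfolded protein response, was higher at 0.23 ± 0.07 (adjusted p 0.0485).

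Between TLS and control cortex, where 5.41% of all genes passed, the nuclear partners of the mitochondrially encoded subunits had no calls. The counts were 0 of 36 for complex I, 0 of 9 for complex III, 0 of 11 for complex IV and 0 of 13 for ATP synthase. Nor did any of 4 pass for complex II, which has no mitochondrially encoded subunit. Against time-0 cortex most of these nuclear genes were higher, where 10.8% of all genes were higher in controls and 18.1% in TLS mice. In controls 30 of 36 complex I genes (median log2 fold change 0.36), 9 of 9 complex III genes (0.28), 10 of 11 complex IV genes (0.44) and 10 of 13 ATP synthase genes (0.38) were higher, and none was lower. So were 3 of 4 complex II genes (0.26), and 3 of 4 in TLS cortex (0.28). In TLS cortex 30 of 36, 8 of 9, 10 of 11 and 10 of 13 were higher than at time-0. The medians over all genes were -0.00159 and -0.00363. Of the mitochondrially encoded subunits of these complexes, 1 of 13 was higher in control than in time-0 cortex, and 2 were higher and 4 lower in TLS than in time-0 cortex. The 1 higher in controls was mt-Nd3, and the 2 higher in TLS cortex were mt-Nd3 and mt-Co1. mt-Nd4l, mt-Atp6, mt-Co3 and mt-Co2 were the 4 lower. All but mt-Co1 are copied genes, whose reads cannot be placed by sequence where a copy is exact.

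For TLS against control liver the nuclear subunit lists had negative medians, where the mitochondrially encoded subunits had a positive one. Cox7b, a nuclear subunit of complex IV, fell by 1.58 ± 0.34 on the log2 scale (adjusted p 0.0169), the only 1 of 11 in its list to pass. The share over all genes was 1.95%. The list medians were -0.65 for complex IV, -0.47 for complex I (0 of 36 passed), -0.52 for complex III (0 of 9) and -0.48 for ATP synthase (0 of 13). Ndufb6, an accessory subunit of complex I, had -0.97 ± 0.27 (adjusted p 0.0549). Against time-0 liver the list medians were 0.39 to 0.55 in controls and 0.00585 to 0.0366 in TLS mice. The 13 mitochondrially encoded subunits had medians of -0.43 in controls and 0.08 in TLS mice against time-0. None of these genes passed in either contrast, where 0.529% and 1.34% of all genes passed. In kidney and WAT 0 genes of these 4 lists passed for TLS against control, where 0.231% and 0.00596% of all genes did.

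The nuclear genes whose log2 CPM was most like the summed protein-coding members differed by tissue. In cortex they included Coa5 (r = 0.812) and Upp2 (r = 0.805), of 8798 genes over 24 libraries. In kidney they were Ube2w (0.873), Esm1 (0.871) and Pfn2 (0.869), of 7823 genes. In liver they were Gigyf2 (0.940), Cpsf7 (0.917) and Luc7l2 (0.916), of 5284 genes, and in WAT Zranb2 (0.870), Selenot (0.865) and Sumo2 (0.853), of 8361 genes over 23 libraries. No gene named here appeared in more than 1 tissue. Within a library all genes share the same depth and scaling, and the libraries of a tissue span all groups.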

How the data were processed

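Raw counts of genes were deposited as 1 table. Per the file header they came from featureCounts and were "corrected". The sources used here do not say what that word means, nor give strand, annotation or the treatment of reads with several matches. The libraries were poly(A)-selected, per the labels. The submitters' processing notes name STAR 2.7.10, the build mm10 (GRCm38), DESeq2 and DESeq. Letters F and M stand under the tag for cell line in the labels and fitted Xist and 4 Y-linked genes in all 95 libraries; for T0_4 and T0_5 the kidney letters are the reverse of those elsewhere. The labels give 1 batch. Their library numbers are lower for every TLS library than for any control library, so this numbering and the treatment cannot be told apart. The lowest mean chi-square over 329 pairs of replicates was 6.84, so none was taken as a duplicate.

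Each tissue was fitted with edgeR 4.0.16 in R 4.3.3 (TMM, filterByExpr with a minimum count of 10, robust quasi-likelihood, 3 groups, sex as covariate), and p-values were adjusted by Benjamini-Hochberg over all genes tested, with a threshold of 0.05. Contrasts within a sex and the sex difference came from a fit of groups by sex and treatment, over the libraries of both sexes. Fits of F or M libraries alone were run as alternatives. The SE is the log2 fold change divided by the square root of the F statistic. Alternatives included DESeq2 1.42.0. Log2 CPM used a prior count of 2. Copies were sought with blastn 2.17.0 in 141730 other GENCODE vM21 transcripts at 85% identity or more. The fits were tested on simulated data. Animal names in the titles pair the libraries across tissues. Deviations from the mean of group and sex had a mean correlation of 0.0462 over 135 same-animal pairs and -0.0136 over 429 other pairs. Such deviations cancel within a group, so the value of the other pairs largely follows from the first and is no separate comparison. Named were all protein-coding and rRNA members, the 4 tRNAs with the highest mean level in a tissue and any tRNA called for TLS against control, up to 3 genes of a list with the smallest p, and the 3 genes most alike (mean log2 CPM 4 or more), of which 1 in cortex is not reported here. The members, lists and rules were chosen with earlier results of these data known.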

Additional observations from a re-analysis of the deposited data

Results flagged for a closer look

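In 36 groups of libraries and classes, 4 held a library far from the rest of its group; chance gives about 1 in 20 groups. Time-0 animal T0_8 had 2.20% of kidney counts in the mitochondrial rRNA genes, and the nearest time-0 library had 0.624%. Control animal E329 had 7.48% of liver counts in the protein-coding members, where the nearest control library had 3.82%, and 100.9 CPM in the tRNA members, where the nearest had 53.9 CPM. Time-0 animal T0_1 had 2.74% of liver counts in the rRNA genes, and the nearest time-0 library had 1.35%.

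The TLS effect of mt-Tt in cortex had a log2 fold change higher by 1.55 in M than in F (adjusted p 0.0365 by edgeR). It was the 1 of 22 members to pass, 4.55%, where 5.08% of all genes passed. mt-Tp passed the test for a TLS effect that differs between the 4 tissues (edgeR adjusted p 0.0439), as did 4.42% of all genes. That fit does not model that the same animals gave the tissues, and with the animal as a block the adjusted p was 0.110, so the call was lost.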

How the results depend on the processing

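Of 22 members, edgeR called 2 for TLS against control in cortex, and DESeq2 called 3. No low-count filter, F libraries alone and the nuclear RNA share as a covariate each gave 0, and M libraries alone gave 1; the cause was not tested. Over fits that left out 1 library the count ran from 0 to 3, for control against time-0 from 4 to 8, and for TLS against time-0 from 7 to 10. Without the filter mt-Co2 had an adjusted p of 0.0820 and mt-Tp of 0.0622. Over all genes the TLS against control calls in cortex were 899, with 3404 from M libraries, 2 from F libraries and 2 under the covariate. In WAT DESeq2 called 1 member for TLS against control and 3 for control against time-0, where edgeR called 0. Kidney, liver and the other WAT counts stayed at 0 under all alternatives run. RLE factors and scaling without mitochondrial genes changed no count of members.

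For the tissue difference, the replicate block gave 0 members against 1 and moved the calls over all genes to 516 from 924 without it; fits without 1 animal gave 0 to 3. The block was fitted for that result alone, since the animal occurs once in each other fit. The sex difference in cortex gave 0 to 1 members without 1 library. Among the alternatives planned, no member called reversed. Leaving out high-rRNA libraries was chosen after seeing the data. The libraries were picked by the rRNA share itself and include no TLS library, so the shifts were built in. For TLS against control mt-Rnr1 and mt-Rnr2 moved to 0.094 and 0.19 in kidney and to 0.57 and 0.22 in WAT. For TLS against time-0 kidney they moved to 0.68 and 0.80. Leaving out single libraries or animals for the sex and tissue differences was also chosen then. Shares of protein-coding members per 100 nuclear counts moved by less than the spread between libraries. Depth limits the rare members, among them tRNAs with calls. mt-Atp8 had a median of 13.5 to 29.0 counts per library over the tissues, and mt-Nd4l of 13.5 to 41.0. For mt-Tp the medians ran from 11 counts (WAT) to 36 counts (cortex). mt-Tt, called for the sex difference in cortex, had 22 counts there, within 15.5 (kidney) to 23.5 (liver).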
